A study of Mus musculus with 15 samples.

Results

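The 40 genes described here encode proteins that carry a cell through mitosis, and they were chosen as a list of gene symbols, all 40 of which are among the 17271 genes of the deposited table. The table gives RNA-seq values for 15 mouse mammary tumours (genotype p53-null, strain BALB/c) of 4 models named 2151R (4 samples), T11 (1), 2225L (2) and 2208L (8). Every group carries the p53-null genotype, so no sample with intact p53 is among them. The 4 samples of 2151R have different title marks, 2151R-5310 for replicate 1, 2151R-53ca for replicate 2, NT2 for replicate 3 and NT for replicate 4, none spelled out. The T11 sample carries no mark, and the 2225L samples carry T-Vivo (replicate 1) and ROSEN (replicate 2). Of the 2208L samples, replicate 1 is marked ROSEN, replicates 2 to 5 PBS (a saline solution) and replicates 6 to 8 3day nt, where nt is not spelled out. Beside these marks, all titles without ROSEN end in CP and a number, and neither CP nor ROSEN is spelled out. The PBS titles begin with DH and a number and the 3day nt titles with KM and a number, also not spelled out. The ages of the mice, and whether samples of a model came from separate mice, are not given in the sources used here, so p-values measure the spread between these samples only.

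Entry into mitosis is driven by cyclin B with the kinase Cdk1, which is helped by the kinases Plk1 and Aurora A, while the spindle checkpoint holds the cell until every chromosome is attached. Release of the checkpoint lets Cdc20 switch on the anaphase-promoting complex, a ubiquitin ligase that destroys cyclin B and frees separase to split the sister chromatids. The genes are transcribed together late in the cell cycle by B-Myb and Foxm1 on promoters with CCAAT boxes and the cell cycle genes homology region (CHR), and intact p53 is known to lower them through p21 and the DREAM repressor complex. In a tumour their RNA is widely read as a measure of dividing cells. In bulk tissue, however, fewer dividing cells and less RNA per dividing cell cannot be told apart.

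The promoter letters of 4 of these genes are shown because they hold the letters of both elements named above. RefSeq promoters (build GRCm38.p6) matched 34 of the 40 symbols. The 250 bases before the start site were searched on both strands for the CHR, spelled TTTGAA, and for the CCAAT box, spelled CCAAT. In a stretch, a match on the opposite strand reads TTCAAA for the former and ATTGG for the latter. A CHR match was present for 12 of the 34 genes (35.3%) and for 18.3% of 27025 genes with a promoter of that length. A CCAAT box was present for 27 of the 34 (79.4%), against 37.5% of all. Both were present for 11 (32.4%), against 6.45% of all. The 36 promoters of these genes held 79 matches, with some sites of Ect2 and Prc1 counted more than once because their promoters overlap. Within a promoter, 1 neighbouring pair of matches overlapped. A match describes letters only. The stretches below run 5′ to 3′ on the coding strand and end at the base before the start site, and capitals mark the CHR and CCAAT box letters. All 4 genes lie on the minus strand, and the stretches are chr7:135716380-135716529 for Mki67, chr11:99024190-99024388 for Top2a, chr10:69352913-69353062 for Cdk1 and chr4:118437344-118437493 for Cdc20.
Mki67: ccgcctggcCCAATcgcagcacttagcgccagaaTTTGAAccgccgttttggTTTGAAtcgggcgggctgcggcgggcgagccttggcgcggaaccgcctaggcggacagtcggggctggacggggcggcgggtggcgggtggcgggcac
Top2a: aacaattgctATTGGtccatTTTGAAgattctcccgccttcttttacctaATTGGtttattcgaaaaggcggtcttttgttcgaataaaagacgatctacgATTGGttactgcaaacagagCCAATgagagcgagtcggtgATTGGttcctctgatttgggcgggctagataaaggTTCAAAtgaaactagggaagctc
Cdk1: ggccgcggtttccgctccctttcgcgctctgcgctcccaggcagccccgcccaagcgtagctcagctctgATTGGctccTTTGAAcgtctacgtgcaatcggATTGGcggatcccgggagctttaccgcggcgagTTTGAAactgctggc
Cdc20: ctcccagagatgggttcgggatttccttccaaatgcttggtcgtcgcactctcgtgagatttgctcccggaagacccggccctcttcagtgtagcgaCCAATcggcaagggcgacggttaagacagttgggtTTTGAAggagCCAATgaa
Mki67 encodes the Ki-67 protein that coats mitotic chromosomes, Top2a the topoisomerase that untangles sister chromatids, Cdk1 the mitotic kinase and Cdc20 the activator of the anaphase-promoting complex. The first 3 stretches hold more than 1 CHR match, and that of Cdc20 holds 1.

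Values are log2 and were read as centred per gene on a reference level that is not stated, so a value can be compared between samples for a gene but not between genes, and a difference of 1 is a 2-fold change up to the offset the authors added. Without counts in the file, sequencing depth is unknown. The median over all genes ran from -0.29 in replicate 5 of 2208L to 0.10 in T11, and results are therefore also given with each sample centred on its own median. Epithelial markers, which a mammary tumour is expected to carry, had means from 0.059 to 1.21 in 2208L and from 2.27 to 2.42 in 2225L, but from -4.21 to -3.24 in 2151R and -8.12 in T11. Because of the centring this does not show whether epithelial RNA was absent. The higher mean of 2225L rests on few of the 8 markers. Their median difference from 2208L was 0.14, from Epcam (-0.26) to Krt5 (9.81). The means of 10 skeletal muscle markers stood high in replicate 3 of 2151R (7.41) and in replicates 6 and 8 of 2208L (10.43 and 9.84).

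The mitosis genes stood highest in 2151R and lowest in 2208L, with 2225L and T11 between them. The median of the 40 genes was 0.97, 0.44, 0.69 and 0.75 in the 4 samples of 2151R and 0.31 and 0.32 in those of 2225L. T11 had 0.013. Among the 2208L samples, replicate 1 had -0.035, and the others had -0.15, -0.37, -0.048 and -0.94 in the PBS samples and -0.57, -0.12 and -0.35 in the 3day nt samples. The mean over the 2151R samples was 0.71 ± 0.22 (SD, n = 4). The mean over the 2208L samples was -0.32 ± 0.31 (SD, n = 8). All samples of 2151R thus lay above those of 2225L, and these above all samples of 2208L. Replicate 1 of 2151R held the highest value of all 15 samples for 27 of the 40 genes, where it held it for 15.4% of all genes. After centring, the medians ran from 0.48 to 0.88 in 2151R, were 0.42 and 0.35 in 2225L and -0.087 in T11, and ran from -0.64 to 0.066 in 2208L. T11 then lay within the range of 2208L, and replicate 1 of 2225L (0.42) still lay under the lowest sample of 2151R.

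**Figure D1:**
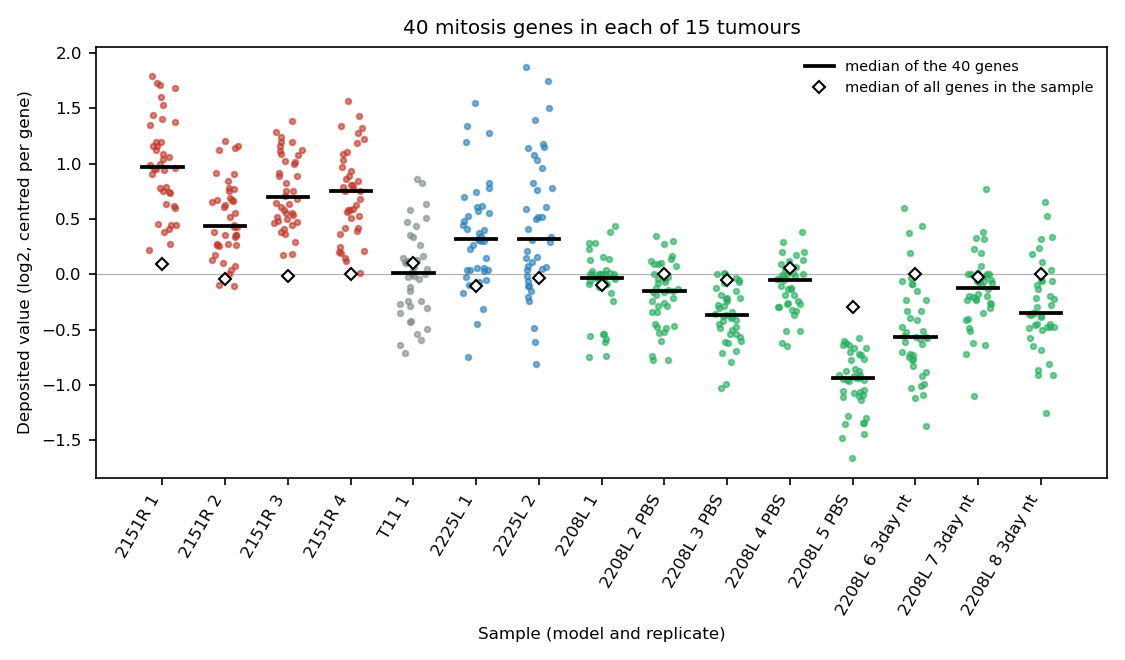
Deposited values (vertical axis, log2, centred per gene) of the 40 mitosis genes in each of the 15 samples (horizontal axis), 1 point per gene, with a bar at their median and a diamond at the median of all genes in that sample. The bars of 2151R (0.44 to 0.97) lie above those of 2225L (0.31 and 0.32), and the lowest bar is replicate 5 of 2208L (-0.94).

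**Figure D2:**
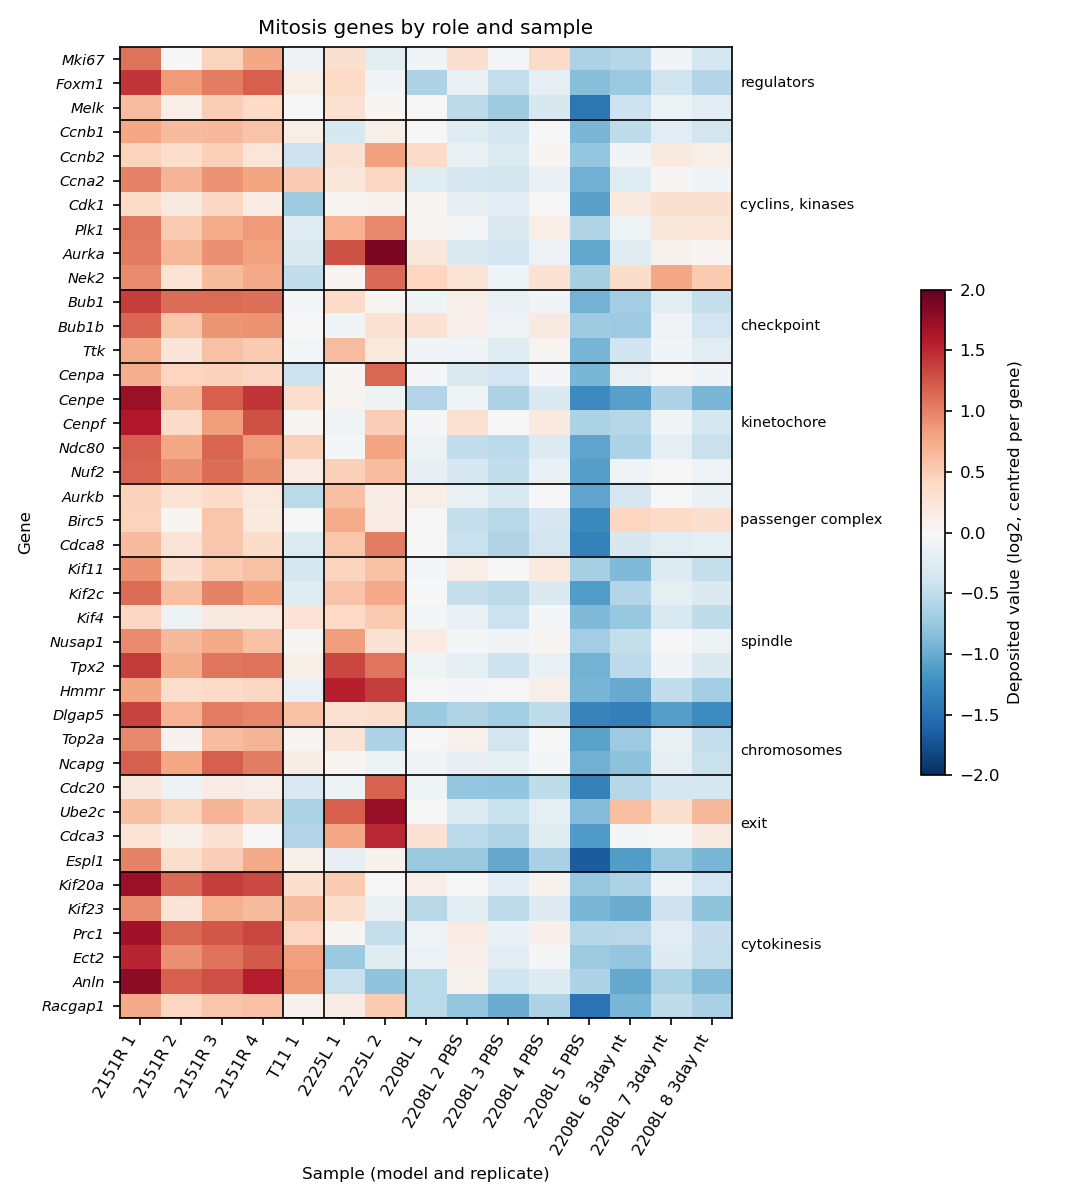
Deposited values (colour, log2, centred per gene) of the 40 genes (rows, grouped by role) in the 15 samples (columns). Anln, Ect2 and Prc1 at the bottom are high in the 4 samples of 2151R and not in 2225L, while Aurka, Hmmr and Ube2c are highest in 2225L.

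The largest contrast between models with several samples was that of 2151R and 2208L. Of the 40 genes, 34 were higher in 2151R and 0 were lower (limma, Benjamini-Hochberg adjusted p under 0.05 over all 17271 genes). Of all genes tested, 26.1% were called higher and 22.7% lower, 48.8% in all. At an unadjusted p under 0.05, 36 of the 40 were higher and 0 lower. The median difference over the 40 genes was 1.01, where it was 0.10 over all genes, and all 40 differences were positive, from 0.35 (Cdk1) to 1.99 (Anln). The groups did not overlap at 30 of the 40 genes, each higher in 2151R, against 20.6% of all genes. After centring each sample the median difference was 0.95 (0.043 over all genes), with 30 genes that did not overlap. The CP numbers in the titles of the 2151R samples form a separate run, and this run cannot be told apart from the model.

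The role group labelled regulators holds Foxm1, Mki67 and Melk, and this label was a choice, not a result for Mki67 or Melk. Foxm1, a transcription factor of the mitosis genes, was 1.44, 0.85, 1.02 and 1.19 in 2151R. In 2208L its lowest, median and highest values were -0.86, -0.53 and -0.14. Every sample of 2151R lay above every sample of 2208L (difference 1.62, SE 0.17, limma adjusted p 4.13e-06). Mki67 was 1.09, 0.00, 0.45 and 0.77 in 2151R and -0.64, -0.076 and 0.38 (lowest, median, highest) in 2208L. The groups overlapped for this gene, since replicate 2 of 2151R lay inside the range of 2208L (difference 0.71, SE 0.24, limma adjusted p 0.0282). Leaving out replicate 1 or replicate 4 of 2151R, or the samples of high muscle markers, ended the Mki67 call. So did keeping only the samples titled NT, nt or PBS, which drops replicates 1 and 2 of 2151R. The call also ended with the PBS samples of 2208L alone and with values adjusted for transcript length. The Mki67 differences over all alternatives ran from 0.43 to 0.91.

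Of the 7 cyclins and entry kinases, 4 were higher, with a median difference of 0.85. Ccnb1, which encodes cyclin B1, was 0.78, 0.63, 0.64 and 0.57 in 2151R and -0.92, -0.29 and 0.010 (lowest, median, highest) in 2208L. The 4 samples of 2151R lay within 0.21 of each other, the narrowest spread among the 40 genes in that model, and above all of 2208L (difference 0.98, SE 0.17, limma adjusted p 0.000341). Plk1, a kinase of mitotic entry and spindle assembly, was 1.06, 0.52, 0.75 and 0.86 in 2151R and -0.60, -0.0054 and 0.24 in 2208L, with no overlap (difference 0.85, SE 0.17, limma adjusted p 0.00109). Cdk1, whose promoter is shown above, did not pass the test. It was 0.38, 0.18, 0.41 and 0.15 in 2151R and -1.09, 0.021 and 0.33 in 2208L, so the groups overlapped (difference 0.35, SE 0.23, limma adjusted p 0.217). Rows for the pseudogenes Ccnb1-ps and Ccnb2-ps stand beside those of Ccnb1 and Ccnb2, and how reads were shared between such copies is not stated, so both genes are uncertain.

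The 6 members that were not called in this comparison were Cdk1, Ccnb2, Nek2, Birc5, Ube2c and Cdca3, of which Ccnb2, Nek2, Ube2c and Cdca3 are named after their values were seen, to complete the count. Birc5 encodes survivin, a subunit of the chromosomal passenger complex that corrects wrong attachments. It was 0.45, 0.04, 0.55 and 0.19 in 2151R and -1.29, -0.16 and 0.44 in 2208L (difference 0.49, SE 0.30, limma adjusted p 0.189). Aurkb, the kinase of that complex, was 0.45, 0.28, 0.37 and 0.21 in 2151R and -1.06, -0.14 and 0.13 in 2208L. Its groups did not overlap (difference 0.56, SE 0.20, limma adjusted p 0.0318), but leaving out any 1 sample of 2151R ended the call. So did leaving out the samples of high muscle markers, or keeping only the samples titled NT, nt or PBS.

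All 5 kinetochore and centromere genes were higher, with a median difference of 1.33. Cenpe, a kinesin motor that moves chromosomes to the spindle centre, was 1.73, 0.67, 1.19 and 1.43 in 2151R and -1.28, -0.62 and -0.080 in 2208L. Its groups did not overlap (difference 1.94, SE 0.24, limma adjusted p 1.82e-05). All 3 checkpoint genes (Bub1, Bub1b, Ttk) were higher, by 0.77 to 1.49. All 7 spindle motor and spindle genes were higher, by 0.56 to 1.96, with Dlgap5, which stabilizes microtubules near chromosomes, at the top. Dlgap5 was 1.35, 0.69, 1.02 and 0.97 in 2151R and -1.37, -0.92 and -0.51 in 2208L, again with no overlap (difference 1.96, SE 0.20, limma adjusted p 2.82e-06).

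Both chromosome structure genes were higher. Top2a was 0.96, 0.07, 0.61 and 0.68 in 2151R and -1.07, -0.25 and 0.091 in 2208L, with replicate 2 of 2151R inside the range of 2208L (difference 0.92, SE 0.25, limma adjusted p 0.00866). The Top2a call ended without the samples of high muscle markers. Of the 4 exit genes 2 were higher, and Cdc20 was one of them. Cdc20 was 0.22, -0.11, 0.17 and 0.12 in 2151R and -1.35, -0.54 and -0.090 in 2208L, and replicate 2 of 2151R lay inside the range of 2208L (difference 0.70, SE 0.25, limma adjusted p 0.0331). The Cdc20 call ended without replicate 1, 3 or 4 of 2151R, without replicate 2 or 3 of 2208L, or without the samples of high muscle markers. It also ended with the 3day nt samples of 2208L alone.

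The 6 cytokinesis genes, whose products build the midzone and the contractile ring that part the daughter cells, had the highest median difference of the 9 role groups, 1.54. All 6 were higher with no overlap, by 1.22 to 1.99. Anln encodes anillin, a scaffold of the contractile ring. It was 1.79, 1.20, 1.28 and 1.56 in 2151R and -1.03, -0.58 and 0.071 in 2208L (difference 1.99, SE 0.20, limma adjusted p 2.63e-06). Under all 26 alternatives tried, leaving out each sample included, Foxm1, Anln, Dlgap5 and Cenpe were still called.

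Other lists describe what moved beside these genes. Of 73 further mitosis genes in the table, 47 were higher in 2151R and 1 was lower, with a median difference of 0.87. They ran from Psrc1 (-1.03, limma adjusted p 0.00472), a spindle protein, to Cit (3.01, limma adjusted p 1.17e-06), a kinase of cytokinesis. Of 30 genes of DNA replication and the step into S phase, 14 were higher and 1 lower, with a median difference of 0.45. Of 7 inhibitors of cyclin-dependent kinases 1 was higher, Cdkn2c at 2.08 (limma adjusted p 0.000113), and 1 lower, Cdkn1c at -1.95 (limma adjusted p 0.00326). Of 9 genes of the activating side (E2F, B-Myb and MuvB) 4 were higher and 1 lower, and of 6 of the repressor side 3 were higher and 0 lower. The highest of the latter was Rbl1 at 1.63 (limma adjusted p 1.04e-05), which encodes the pocket protein p107. The lists overlap, since Mybl2 of the activating side is also among the further mitosis genes, and E2f1 and E2f2 are among the replication genes.

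Cell type markers also differed between 2151R and 2208L. Of 8 epithelial markers 7 were lower and 1 was higher in 2151R. Of 7 macrophage markers 6 were higher, and their mean ran from 0.77 to 1.11 in 2151R and from -0.85 to 0.23 in 2208L. All 4 endothelial markers were higher, with means from 0.43 to 1.09 and from -1.37 to 0.038. Of 4 mesenchymal markers 3 were higher, with means from 1.496 to 2.04 and from -0.80 to 0.26. Of 4 fibroblast markers 2 were higher, with means from 0.95 to 1.96 and from -2.27 to 1.37. The part of these cells in the difference of the mitosis genes was not tested. Of 5 adipocyte markers 2 were higher, of 4 T cell markers 1 was, and of 4 neutrophil markers 2 were lower. None of the 10 muscle markers passed. Without the 3 samples of high muscle markers, 30 of the 40 mitosis genes were called higher and the median difference was 0.93.

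**Figure D3:**
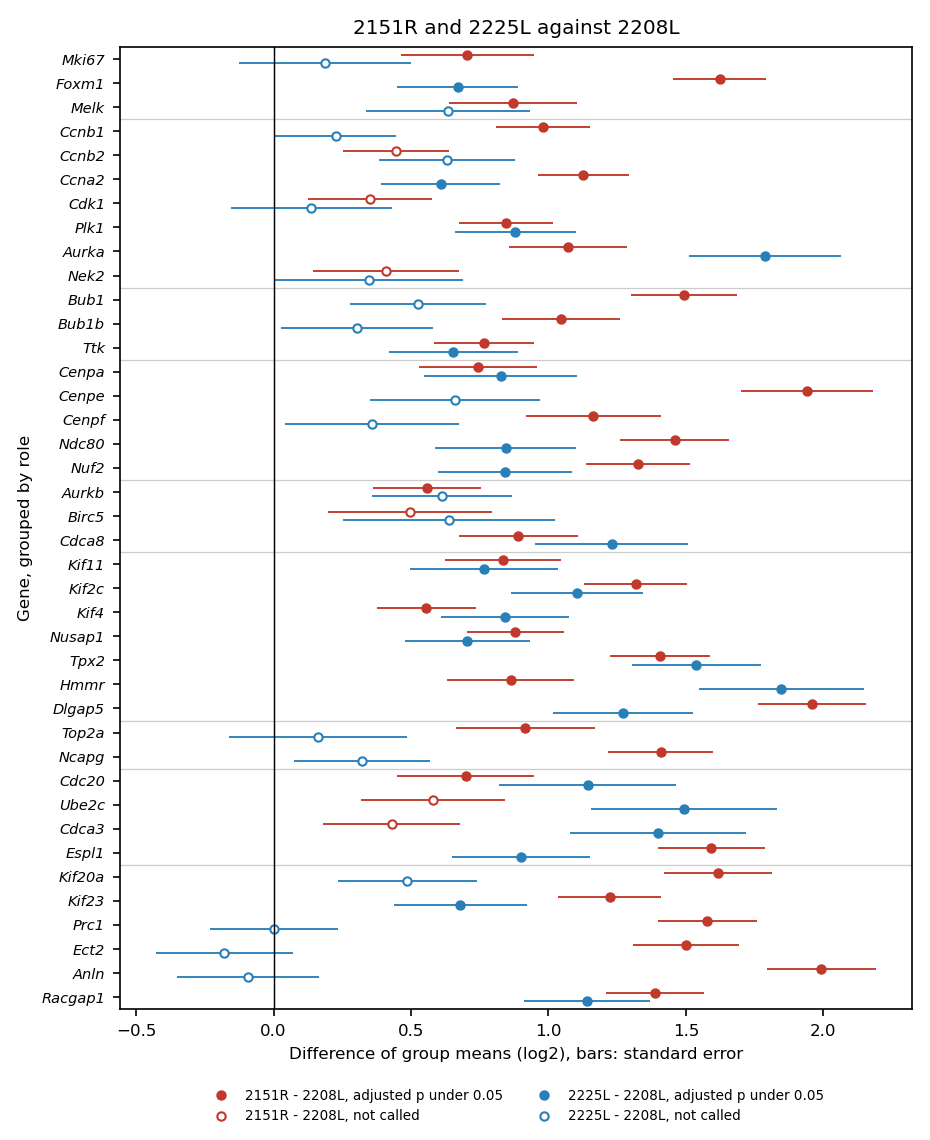
Difference of group means (horizontal axis, log2, with the standard error) for each of the 40 genes (vertical axis, grouped by role) for 2151R minus 2208L (n = 4 and 8) and 2225L minus 2208L (n = 2 and 8), which share the 2208L samples. Filled points passed the test. For 2151R all 40 points lie right of 0, and for 2225L Ect2 (-0.18) and Anln (-0.093) lie left of it.

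Against 2208L, 2225L had 22 of the 40 mitosis genes higher and 0 lower (limma, adjusted p under 0.05), where 15.6% of all genes were called higher and 17.3% lower. At an unadjusted p under 0.05, 24 were higher and 0 lower. The median difference was 0.67 (-0.044 over all genes). The groups did not overlap at 23 genes, all higher in 2225L, against 15.7% of all genes. The comparison shares its 2208L samples with that of 2151R, and the count rests on few samples. It was 9 without replicate 2 of 2225L, which leaves 1 sample of that model whose spread is taken from the others, 5 with sample weights and 14 without the samples of high muscle markers.

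The 3 genes with the largest differences were Hmmr, Aurka and Tpx2. Hmmr, a microtubule-binding protein of the spindle, was 1.55 and 1.39 in 2225L and -1.01, -0.26 and 0.12 (lowest, median, highest) in 2208L (difference 1.85, SE 0.30, limma adjusted p 0.000473). Aurka, which encodes Aurora A, was 1.27 and 1.88 in 2225L and -1.04, -0.17 and 0.23 in 2208L (difference 1.79, SE 0.28, limma adjusted p 0.000333). Tpx2, the protein that activates Aurora A on the spindle, was 1.34 and 1.08 in 2225L and -0.95, -0.23 and -0.057 in 2208L (difference 1.54, SE 0.23, limma adjusted p 3e-04). Both samples of 2225L lay above all of 2208L for these 3 genes, and the calls held under all 23 alternatives.

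By role, all 7 spindle genes and all 4 exit genes were higher in 2225L, with median differences of 1.10 and 1.27. Cdc20 was among the exit genes, at -0.09 and 1.18 in the 2225L samples (difference 1.14, SE 0.32, limma adjusted p 0.0155). Its call rests on replicate 2 and ended without it. The Cdc20 call also ended with sample weights or with the 3day nt samples of 2208L alone. Of the 7 cyclins and entry kinases 3 were higher, and Plk1 was one of them, at 0.70 and 0.96 in 2225L (difference 0.88, SE 0.22, limma adjusted p 0.00813, not called without replicate 2 or with sample weights). Ccnb1 was -0.32 and 0.11 (difference 0.23, limma adjusted p 0.463) and Cdk1 0.06 and 0.07 (0.14, limma adjusted p 0.754). Of the 3 passenger complex genes 1 was higher, while Aurkb (0.61 and 0.15 in 2225L, difference 0.61, limma adjusted p 0.0827) and Birc5 (0.75 and 0.15, difference 0.64, limma adjusted p 0.228) did not pass.

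Of Foxm1, Mki67 and Melk, only Foxm1 was higher, at 0.40 and -0.06 in 2225L (difference 0.67, SE 0.22, limma adjusted p 0.0321). Its call ended without replicate 1 of 2225L or without the samples of high muscle markers. It also ended with sample weights or with the PBS samples of 2208L alone. Mki67 was 0.32 and -0.20 (difference 0.19, limma adjusted p 0.688). Neither chromosome structure gene passed the test, and Top2a was 0.26 and -0.61 (difference 0.16, limma adjusted p 0.741). Of the 6 cytokinesis genes 2 were higher. Anln was -0.45 and -0.81 in 2225L (difference -0.093, SE 0.26, limma adjusted p 0.813) and Ect2, the exchange factor that switches on RhoA at the cleavage site, was -0.74 and -0.24 (difference -0.18, SE 0.25, limma adjusted p 0.623). Of the 73 further mitosis genes 28 were higher and 0 lower in 2225L, with a median difference of 0.52, from Mastl (-0.64, not called, limma adjusted p 0.0544) to Cenpm (1.66, limma adjusted p 0.00227). Of the 30 replication genes 7 were higher and 1 lower (median 0.44). Of the 7 inhibitors of cyclin-dependent kinases 2 were higher, led by Cdkn1c at 4.23 (limma adjusted p 0.000155), and 0 lower. On the activating side 2 of 9 genes were higher and 2 lower. Of the 6 repressor-side genes 1 was higher and 1 lower, the latter Rb1 at -2.21 (limma adjusted p 0.000899). All 4 neutrophil markers and 4 of 7 macrophage markers were lower in 2225L, with neutrophil means of -2.46 to -2.24 against -0.63 to 2.19 in 2208L. Of 4 mesenchymal markers 2 were lower, with means of -2.32 and -1.74 against -0.80 to 0.26, while 2 of 8 epithelial markers and 1 of 2 B cell markers were higher. The part of these cells in the mitosis differences was not tested.

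The titles of the 2225L samples carry different prefixes before a number, CP for replicate 1 and ROSEN for replicate 2. Replicate 1 was the higher for 17 of the 40 genes, and 3 genes lay over 1 log2 unit apart, each higher in replicate 2, where 34.1% of all genes lay that far apart. With prefix as a covariate, which replicate 1 of 2208L (also ROSEN) allows, 16 genes were called higher than in 2208L and the median difference was 0.66. Within the CP prefix 2225L has 1 sample, and within ROSEN 2225L and 2208L have 1 each.

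The samples of 2225L and 2151R were also set directly against each other. Of the 40 genes, 2 were higher in 2225L and 9 lower (limma, adjusted p under 0.05), where 22.8% of all genes were called higher and 25.8% lower, 48.6% in all. The shares of the 40 genes were thus no larger than those of all genes, and differences between roles were not tested. At an unadjusted p under 0.05, 4 were higher and 15 lower. The groups did not overlap at 4 genes higher in 2225L (28.9% of all genes) and 15 lower (33.4% of all genes). The median difference was -0.24, against -0.10 over all genes. Of the 6 cytokinesis genes 4 were lower in 2225L, with a median of -1.35 for the group. Anln differed by -2.09 (SE 0.28, limma adjusted p 5.01e-05), Ect2 by -1.68 (SE 0.27, limma adjusted p 0.000249) and Prc1, which bundles midzone microtubules, by -1.58 (SE 0.26, limma adjusted p 0.000234). Prc1 was 1.69, 1.16, 1.24 and 1.34 in 2151R and 0.04 and -0.48 in 2225L. The groups did not overlap at any of these 3 genes, and their calls held under all 17 alternatives.

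Foxm1 (-0.95, SE 0.24, limma adjusted p 0.00547) and Ccnb1 (-0.76, SE 0.24, limma adjusted p 0.0195) were also lower in 2225L. Without replicate 2 of 2225L Foxm1 was no longer called, and without replicate 1 Ccnb1 was not. With sample weights neither Foxm1 nor Ccnb1 was called. The other lower genes were Kif20a, Cenpe, Ncapg and Bub1, named after their values were seen, to complete the count. The 2 higher genes were Hmmr (0.99, SE 0.33, limma adjusted p 0.0244) and Cdca3 (0.97, SE 0.35, limma adjusted p 0.0362), a trigger of Wee1 destruction at mitotic entry. Cdca3 was 0.78 and 1.501 in 2225L and 0.27, 0.10, 0.29 and 0.01 in 2151R. Neither of these 2 calls held without replicate 2 of 2225L, with prefix as a covariate or with quantile normalization, and that of Hmmr also ended without replicate 1 of 2225L. With sample weights neither Hmmr nor Cdca3 was called. Cdca3 was also no longer called without replicate 1, 2 or 4 of 2151R, without the samples of high muscle markers, or with values adjusted for transcript length. Ube2c, the ubiquitin-conjugating enzyme of the anaphase-promoting complex, was 1.19 and 1.74 in 2225L and 0.60, 0.45, 0.68 and 0.51 in 2151R. Its groups did not overlap, but it missed the threshold (difference 0.91, SE 0.37, limma adjusted p 0.057). It was called after each sample was centred, or without the samples of high muscle markers.

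The other named genes did not pass in this comparison. Mki67 differed by -0.52 (SE 0.34, limma adjusted p 0.23) and Top2a by -0.75 (SE 0.36, limma adjusted p 0.0965). Cdk1 (-0.21), Plk1 (0.033), Aurkb (0.054), Birc5 (0.14) and Cdc20 (0.44) differed by less. Of the 73 further mitosis genes 6 were higher and 21 lower in 2225L, from Cit (-2.62, limma adjusted p 0.000117) to Psrc1 (2.56, limma adjusted p 7.43e-05). Among the 30 replication genes 1 was higher and 4 were lower. On the activating side 1 of 9 genes was higher and 2 were lower. On the repressor side 1 of 6 was higher and 4 were lower. Of the 7 inhibitors of cyclin-dependent kinases 1 was higher, Cdkn1c at 6.18 (limma adjusted p 5.48e-06), and 1 lower, Cdkn1a, the gene of p21, at -1.58 (limma adjusted p 0.0128). All 7 macrophage and all 4 mesenchymal markers were lower in 2225L, as were 2 of 4 fibroblast, 2 of 4 neutrophil and 1 of 4 endothelial markers. All 8 epithelial markers and 1 of 2 B cell markers were higher. Their part in these differences was not tested.

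T11 is 1 sample, so its values carry no test. It lay above the range of 2208L for 18 of the 40 genes and below it for 0, where 35.8% and 21.7% of all genes lay so. It lay below the range of 2151R for 38 genes and above it for 0, where 30.8% and 39.9% of all genes lay so. Set beside 2225L, T11 lay above the range for 10 genes and below it for 23, where 45.5% and 35.0% of all genes lay so. The median difference was 0.28 from the mean of 2208L (0.18 over all genes) and -0.78 from that of 2151R (0.092 over all genes). Centring each sample reduced the former to 0.13. The genes farthest above the 2208L mean were led by Dlgap5 (0.58 in T11, 1.53 above), and the lowest was Nek2 (-0.49, a difference of -0.74), a centrosome kinase. Mki67 was -0.11, Foxm1 0.12, Top2a 0.05, Ccnb1 0.12, Cdk1 -0.72, Plk1 -0.24, Aurkb -0.54, Birc5 0.00 and Cdc20 -0.30 in T11. All 9 lay below the 4 samples of 2151R. Foxm1 and Ccnb1 lay above the range of 2208L and the other 7 inside it.

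Within 2208L, replicate 5, a PBS sample, had the lowest mitosis values. It was the lowest of the 8 samples for 33 of the 40 genes, where it was so for 35% of all genes. For the other 7 the lowest was replicate 6. After centring, replicate 5 was the lowest for 23 genes (16.65% of all genes) and replicate 6 for 17 (23.44% of all genes). Against the other 3 PBS samples it was lower at all 40 genes (65.2% of all genes), by a median of -0.73 (-0.31 over all genes), from Anln (-0.43) to Top2a (-0.98). After centring it was still below the other PBS samples at 39 of the 40 genes, where 33.4% of all genes were, and the median was -0.43. Cdk1 was -1.09 in this sample and -0.16, -0.22 and 0.00 in the other PBS samples. Its mean of 4 T cell markers was also the lowest of the 15 samples (-2.77), while its epithelial marker mean (0.40) was within the range of 2208L. Their part in the low mitosis values was not tested.

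The PBS and the 3day nt samples of 2208L were compared with each other, leaving out replicate 1. Of the 40 genes 0 were higher and 3 lower in PBS (limma, adjusted p under 0.05), where 17.4% of all genes were called higher and 16.5% lower. At an unadjusted p under 0.05, 1 was higher and 4 lower. The counts depend on the fit, with 14 higher and 13 lower under sample weights and 1 higher and 8 lower under quantile normalization. The median difference was -0.090 (-0.047 over all genes), and -0.026 after centring. The groups did not overlap at 1 gene higher and 7 genes lower in PBS, against 21% and 23.8% of all genes. Titles begin with DH in the PBS samples and with KM in the 3day nt samples. Each subset also has its own run of CP numbers, and neither mark can be told apart from the subset.

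The 3 lower genes were Birc5, Ube2c and Cdca3. Birc5 was -0.48, -0.56, -0.33 and -1.29 in PBS and 0.44, 0.39 and 0.34 in 3day nt samples (difference -1.05, SE 0.24, limma adjusted p 0.0174). Ube2c was -0.25, -0.45, -0.19 and -0.87 in PBS and 0.60, 0.32 and 0.65 in 3day nt samples (difference -0.96, SE 0.19, limma adjusted p 0.0125). Cdca3 was -0.53, -0.60, -0.24 and -1.14 in PBS and -0.04, 0.00 and 0.18 in 3day nt samples (difference -0.68, SE 0.21, limma adjusted p 0.0494). The PBS samples lay below the 3day nt samples for each of these genes. Skeletal muscle marker means were 3.08, 2.10, -2.75 and -2.18 in PBS and 10.43, 1.84 and 9.84 in 3day nt samples. With these means as a covariate, or without replicates 6 and 8, none of the 3 was called. The differences were -0.92 for Birc5, -0.71 for Ube2c and -0.60 for Cdca3 with the covariate, and -1.05, -0.76 and -0.63, in the same order, without replicates 6 and 8. The latter leaves 1 3day nt sample, replicate 7, and a median difference of -0.27. Left out alone, replicate 8 also ended all 3 calls, and replicate 6 ended those of Birc5 and Cdca3. The Cdca3 call also ended without replicate 2, 3 or 7. All 4 neutrophil markers were higher in PBS, with means of 1.16 to 2.19 against -0.63 to 0.91, and 2 of 4 mesenchymal markers were higher, with means of -0.17 to 0.26 against -0.80 to -0.52. Lower in PBS were 1 of 8 epithelial markers (means of 0.059 to 0.40 against 0.46 to 1.21) and 1 of 2 B cell markers (-2.05 to -0.96 against -0.45 to 0.50). Of the muscle (10), T cell (4) and macrophage (7) markers 1 each was lower. Of the 5 adipocyte markers 0 passed. Their means were -2.455, -3.613, 2.718 and -3.165 in PBS and 2.862, 2.284 and 2.475 in 3day nt samples. The part of neutrophils, adipocytes, mesenchymal, epithelial and B cells in these differences was not tested.

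The highest differences the other way were at Anln (0.54, SE 0.19, limma adjusted p 0.0662), Hmmr (0.51, SE 0.28, limma adjusted p 0.196) and Kif11 (0.46, SE 0.26, limma adjusted p 0.198), the motor that pushes spindle poles apart. These were not called. Anln was 0.07, -0.40, -0.26 and -0.62 in PBS and -1.03, -0.64 and -0.86 in 3day nt samples, so replicate 5 was the PBS sample closest to the 3day nt range. Without replicate 5, 5 genes were called higher and 4 lower in PBS, and the median difference turned to 0.12. Among the other named genes, Cdk1 differed by -0.65 (SE 0.27, limma adjusted p 0.0999), Mki67 by 0.34 (SE 0.28, limma adjusted p 0.362) and Cdc20 by -0.43 (SE 0.21, limma adjusted p 0.144). Foxm1 (0.16), Top2a (0.11), Ccnb1 (-0.0053), Plk1 (-0.33) and Aurkb (-0.22) did not pass either.

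The sign of this difference followed the length of the transcript, which was noticed after the values were seen. The longest annotated transcript (GENCODE M21, mm10) ran from 1466 to 3334 bases in the 20 shortest of the 40 genes and from 3398 to 11130 bases in the 20 longest. Of the 20 shortest, 1 was higher in PBS and the median difference was -0.36. Of the 20 longest, 17 were higher and the median was 0.24. Across the 40 genes, which are not independent, the difference correlated with log2 length at Pearson 0.58 and Spearman 0.66. Across all 16912 genes with a length the values were 0.22 and 0.38, so the relation was not particular to mitosis genes. After a straight line on log2 length was taken out of each sample, the medians were -0.29 for the 20 shortest and 0.00 for the 20 longest, Spearman was 0.36, and 0 genes were called higher and 2 lower. Its part in the subset difference beyond this adjustment was not tested. Length also moved with the differences between models, and with that between the samples of 2225L. For replicate 1 minus replicate 2 of 2225L the medians of the shortest and longest were -0.397 and 0.161 (Spearman 0.465), with 5 and 12 positive differences. For 2151R against 2208L the medians of the shortest and longest were 0.86 and 1.32 (Spearman 0.36), and 33 genes were called higher after the adjustment. For 2225L against 2208L they were 0.83 and 0.59 (Spearman -0.35), with 22 genes called higher after it. For 2225L against 2151R they were -0.015 and -0.72 (Spearman -0.52), with 10 and 3 positive differences, and after the adjustment 1 gene was called higher and 9 lower.

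**Figure D4:**
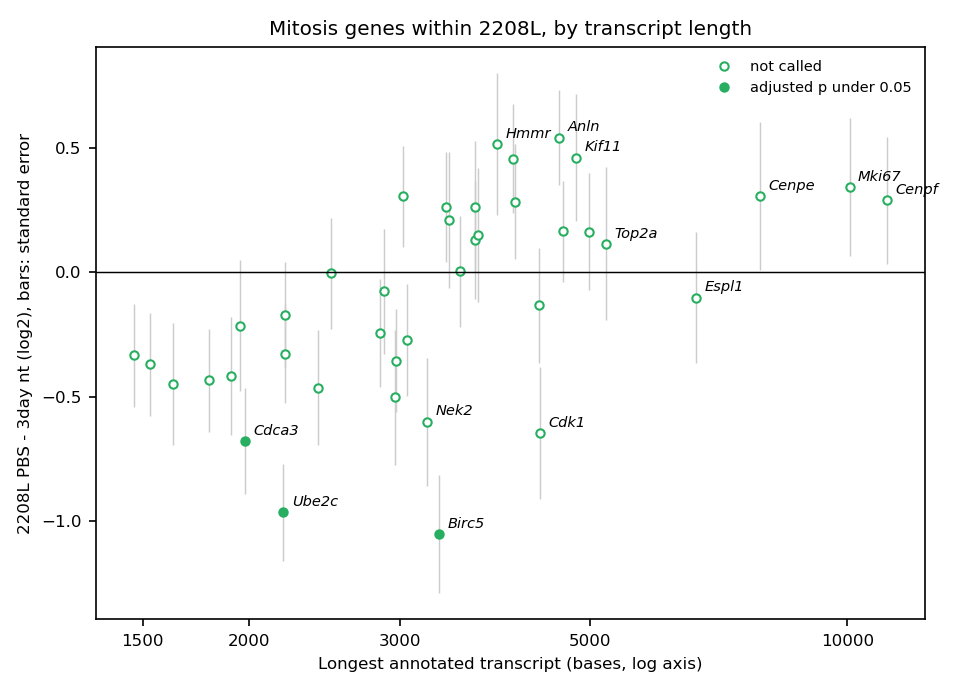
Difference of 2208L PBS (n = 4) minus 3day nt (n = 3) samples (vertical axis, log2, with the standard error) against the longest annotated transcript (horizontal axis, bases, log scale) for the 40 mitosis genes. Filled points passed the test. The called genes Birc5, Ube2c and Cdca3 lie low at the left and middle, and 17 of the 20 longest lie above 0.

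Other lists were read in the same comparison. Of the 73 further mitosis genes 1 was higher and 8 lower in PBS, from Pttg1 (-1.40, limma adjusted p 0.00464), which encodes securin, the inhibitor of separase, to Kif20b (0.99, limma adjusted p 0.0339), a cytokinesis motor. Of the 30 replication genes 0 were higher and 4 lower, with a median difference of -0.40. On the activating side 1 of 9 genes was higher and 2 were lower in PBS. Of the 6 repressor-side genes 2 were higher and 1 lower in PBS, with Rb1, the retinoblastoma gene, at 1.25 (limma adjusted p 0.00162) and E2f5 at -0.50 (limma adjusted p 0.0116). Of the 7 inhibitors of cyclin-dependent kinases 1 was higher, Cdkn1b at 0.61 (limma adjusted p 0.0163), and 2 were lower, led by Cdkn2d at -0.83 (limma adjusted p 0.00732).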

How the data were processed

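RNA was measured in 15 tumours. Per the labels' protocols, poly(A) libraries were made from total RNA with an Illumina TruSeq kit. The submitters' processing notes name STAR, Salmon and mm10, without their roles. The authors deposited 1 table of log2 values, whose name gives the log2 scale and the terms Zs and Med, neither spelled out. That each gene was centred on a median is read from that name and from values on both sides of 0. The reference samples of that centring, the scaling between samples and the offset are not given in the sources used here. Only 6.51% of genes have a median of 0 over these samples, so these samples alone were not its reference. None of the 40 genes has a repeated value across samples.

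Groups follow the titles, and replicates are numbered in accession order and pair no samples. All 17271 genes were fitted with limma 3.58.1 in R 4.3.3 (lmFit, eBayes without a trend). The model comparisons share 1 fit of 15 samples, and the subset comparison used 7. Genes with a Benjamini-Hochberg adjusted p under 0.05 are called, and role groups, lists and T11 are described without a test. The code of the fit was also run on simulated data with independent noise and few changed genes. Those settings differ from these data, so the run checks the code only. The genes named with values are 9 fixed by role plus, in each comparison, the 3 largest differences each way, and in other lists the extremes. The genes and lists were chosen with earlier results of these data known. Alternatives were other scalings, fits, filters, sample choices and, chosen after seeing the data, a transcript length adjustment. Of the promoters, 28 of 36 continued into a GENCODE transcript in the sense direction and 0 in reverse.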

Additional observations from a re-analysis of the deposited data

Results flagged for a closer look

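In groups of 4 to 8 samples, 66 sets of values (20 named genes and the median of the 40 genes with and without centring, in 2151R, 2208L and the PBS subset) were examined for a sample far from the others. There were 4 such values, where chance gives about 1 in 20, or 3.3. Replicate 5 of 2208L stood apart for Aurkb (-1.06, others -0.33 to 0.13) and Cdk1 (-1.09, others -0.22 to 0.33) in 2208L, and for Hmmr among the PBS samples (-0.93, others -0.042 to 0.12). Replicate 1 of 2151R stood apart for Hmmr (0.79, others 0.35 to 0.41). The median of the 40 genes did not meet the criterion in any group.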

How the results depend on the processing

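No paired analysis was possible because sample titles give no numbers shared between groups. The median differences of the 40 genes moved by less than the spread between samples of a group under every alternative run, T11 included. That spread was a pooled SD of sample medians, 0.27 within models and 0.34 within subsets. It is larger than the differences for 2225L against 2151R and for the subsets, and close to that for T11 against 2208L. Moving by less than it therefore does not show these 3 to be stable. The subset median (-0.090) ran from -0.27 to 0.12. For 2225L minus 2151R the median (-0.24) ran from -0.50 to -0.17, and for T11 minus 2208L (0.28) from 0.13 to 0.45. For 2151R against 2208L the count of higher genes ran from 30 to 35 when 1 sample was left out. It was 20 with at least 1 log2 unit required, 29 with only the samples titled NT, nt or PBS, and 40 with sample weights. In this comparison no alternative called a lower gene. For 2225L against 2208L it ran from 9 to 21 when 1 sample was left out, and was 5 with sample weights, 10 with at least 1 log2 unit and 14 without the samples of high muscle genes. For 2225L against 2151R the higher genes ran from 0 to 3 when 1 sample was left out. They were 4 with each sample centred, 1 with the length adjustment, and 0 with quantile normalization, sample weights, at least 1 log2 unit or prefix as a covariate. The lower genes ran from 6 to 13 and were 5 with sample weights. For 2208L PBS against 3day nt, leaving out 1 sample gave 0 to 5 higher and 0 to 4 lower genes. The higher genes were 2 with each sample centred, 1 with quantile normalization and 14 with sample weights. The lower genes were 8 with quantile normalization, 13 with sample weights, 1 with at least 1 log2 unit, and 0 without the samples of high muscle genes or with the muscle mean as a covariate. The causes were not tested, except that a minimum difference lowers a count by construction. Of 1135 values of named genes under alternatives, no called gene changed sign, 76 lost a call, 28 gained one, and 38 that were not called changed sign.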
